A study of Homo sapiens with 17 samples.

Results

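A set of 9 genes around the FOXO transcription factors was followed in 2 lymphoma lines: the factors FOXO1 and FOXO3, and 7 genes tied to FOXO activity or to quiescence, namely KLF2, SESN1, SESN3, TXNIP, TSC22D3, PIK3IP1 and BTG1. These 9 genes, of 63677 counted, were listed by symbol and taken up after SESN3 was seen to be higher and TSC22D3 lower both with A-485 and in clones labelled BCL11A knockout. Their values in those comparisons are therefore descriptions, and no test on them is used as support. Read counts per gene came from total RNA of Karpas-422 and WSU-DLCL2, established human lines of diffuse large B cell lymphoma. The 15 libraries formed 5 groups of 3: Karpas-422 treated with A-485 for 48 h, untreated Karpas-422, WSU-DLCL2 treated with A-485 for 48 h, 3 WSU-DLCL2 clones labelled BCL11A knockout, and untreated WSU-DLCL2. Each clone library is 1 clone, no unedited clone was among the samples, and the labels do not say how BCL11A was disrupted or whether untreated cells received a vehicle.

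FOXO factors are forkhead transcription factors that AKT phosphorylates and keeps in the cytoplasm while PI3K signals, and that enter the nucleus and bind a forkhead motif when the signal drops. In lymphocytes they act with a programme of resting cells, in which KLF2 keeps lymphocytes quiescent and directs their trafficking. In germinal centres, FOXO1 maintains the dark zone. Sestrins restrain the growth kinase mTORC1, PIK3IP1 restrains PI3K itself, and BTG1 slows proliferation. EP300 and CREBBP encode p300 and CBP, acetyltransferases that modify histones and also FOXO proteins, and A-485 blocks their catalysis. BCL11A is a zinc-finger regulator of transcription with a role in B cell development.

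The libraries were of 2 kinds. All 9 libraries of Karpas-422 and of A-485-treated WSU-DLCL2 held 6689320 to 8897051 counts in genes, with 43.0% to 55.5% of all lines' reads not uniquely aligned. The 6 libraries of the clones and of untreated WSU-DLCL2 held 21233752 to 37286727 counts in genes, with 7.73% to 9.24% not uniquely aligned. Levels were therefore tested only within a kind. Replicate 3 of untreated WSU-DLCL2, sequenced in 3 runs that share 1 file of counts, is untreated by title and treated with A-485 by its treatment entry. It was grouped by title, and the members and named genes that rest on it are given with and without it. No label says whether the other replicates came from separate cultures, so every p-value reflects spread among libraries that could be technical replicates. All 6 B cell markers were detected in every group, with summed levels of 1362 to 6526 CPM (counts scaled to 1000000 counts in genes). T and NK cell markers summed to 549 to 588 CPM in A-485-treated and 637 to 682 CPM in untreated Karpas-422, and to at most 17.6 CPM in the other libraries. Epithelial and fibroblast markers summed to 177 to 193 CPM in A-485-treated and 381 to 428 CPM in untreated Karpas-422, with 5 of the 6 at 0 in both groups.

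The promoters of the members are shown first because a forkhead motif is how a FOXO factor meets a gene. RefSeq (GRCh38.p14) gave 19 windows of 300 bases for the 9 members, each with 250 bases before and 50 after a start. The core GTAAACA, searched on both strands, lay in 1 window each of 4 members: BTG1, TSC22D3, PIK3IP1 and TXNIP. Among all 27305 genes with such windows, 4.19% held it, and among their 35116 windows 3.42% did, beside 4 of the members' 19 windows. The members were listed for ties to FOXO or quiescence, so nothing is read from their share. Capitals mark the motif, which reads TGTTTAC where it lies on the other strand. BTG1, at chr12:92145797-92146096 on the minus strand, has it 209 bases before the start.
BTG1: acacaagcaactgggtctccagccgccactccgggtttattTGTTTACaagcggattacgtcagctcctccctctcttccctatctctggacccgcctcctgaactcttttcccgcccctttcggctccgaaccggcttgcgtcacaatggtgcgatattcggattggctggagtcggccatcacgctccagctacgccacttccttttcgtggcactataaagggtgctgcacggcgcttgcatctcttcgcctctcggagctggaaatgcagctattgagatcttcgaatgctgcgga
TSC22D3, at chrX:107717013-107717312 on the minus strand, has it 147 bases before the start of 1 of its 4 windows.
TSC22D3: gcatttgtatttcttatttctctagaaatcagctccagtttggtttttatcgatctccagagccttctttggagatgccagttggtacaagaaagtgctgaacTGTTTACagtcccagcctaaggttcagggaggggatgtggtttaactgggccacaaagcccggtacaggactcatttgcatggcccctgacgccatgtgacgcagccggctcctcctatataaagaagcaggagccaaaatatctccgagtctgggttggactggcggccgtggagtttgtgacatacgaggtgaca
PIK3IP1, at chr22:31292439-31292738 on the minus strand, has it 16 bases after the start.
PIK3IP1: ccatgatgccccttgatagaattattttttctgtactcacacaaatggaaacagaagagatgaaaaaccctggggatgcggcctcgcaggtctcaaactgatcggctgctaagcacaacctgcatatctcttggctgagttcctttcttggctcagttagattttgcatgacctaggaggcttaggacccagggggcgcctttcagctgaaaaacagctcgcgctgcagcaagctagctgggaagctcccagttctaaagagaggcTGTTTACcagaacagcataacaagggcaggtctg
TXNIP, at chr1:145996530-145996829 on the minus strand, has it 124 bases before the start.
TXNIP: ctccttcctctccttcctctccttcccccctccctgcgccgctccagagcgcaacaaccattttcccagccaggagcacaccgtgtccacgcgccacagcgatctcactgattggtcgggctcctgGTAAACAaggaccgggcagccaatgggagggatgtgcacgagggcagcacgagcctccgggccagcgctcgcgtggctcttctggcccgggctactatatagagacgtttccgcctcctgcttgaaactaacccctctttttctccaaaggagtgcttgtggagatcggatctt
SESN3, which differed most between the A-485-treated lines of the 5 members tested there, is shown for contrast. Its only window, at chr11:95232426-95232725 on the minus strand, holds no such match.
SESN3: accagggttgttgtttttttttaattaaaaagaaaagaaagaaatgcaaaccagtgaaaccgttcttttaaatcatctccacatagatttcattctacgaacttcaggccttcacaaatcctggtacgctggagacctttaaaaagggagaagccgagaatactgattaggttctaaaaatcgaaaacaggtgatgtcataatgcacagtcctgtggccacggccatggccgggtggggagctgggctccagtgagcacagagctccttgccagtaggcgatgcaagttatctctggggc
A match describes the letters of a window, and its absence says nothing about FOXO binding elsewhere.

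Of the 9 members, 6 were counted in all 15 libraries: FOXO1, SESN1, SESN3, TSC22D3, PIK3IP1 and BTG1. FOXO3 was counted in 6 libraries and KLF2 in 10. TXNIP, an alpha-arrestin that binds thioredoxin and limits glucose uptake, was listed at 0 in all 15 under the identifier that matched its symbol. Symbols came from tables of a newer genome build than the counts, so the 0 does not show that TXNIP was silent, and the sources used here do not say whether its reads were counted under another identifier.

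The order of the members differed between the lines. Per kilobase of annotated exon, FOXO1 was the highest member in untreated Karpas-422 (160 CPM per kb), in A-485-treated WSU-DLCL2 (106), in the clones (34.8) and in untreated WSU-DLCL2 (36.1). SESN3 was the highest in A-485-treated Karpas-422, at 109 CPM per kb against 80.1 for FOXO1. In all 3 WSU-DLCL2 groups BTG1, at 41.1 CPM per kb with A-485, 21.4 in the clones and 24.9 untreated, lay above SESN3, at 19.0, 9.10 and 7.66. In untreated WSU-DLCL2 TSC22D3 averaged 7.78 CPM per kb with replicate 3 and 3.57 without it, SESN3 7.66 and 3.05, and PIK3IP1 6.06 and 5.02. SESN1 and FOXO3 were below PIK3IP1 there.

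**Figure D1:**
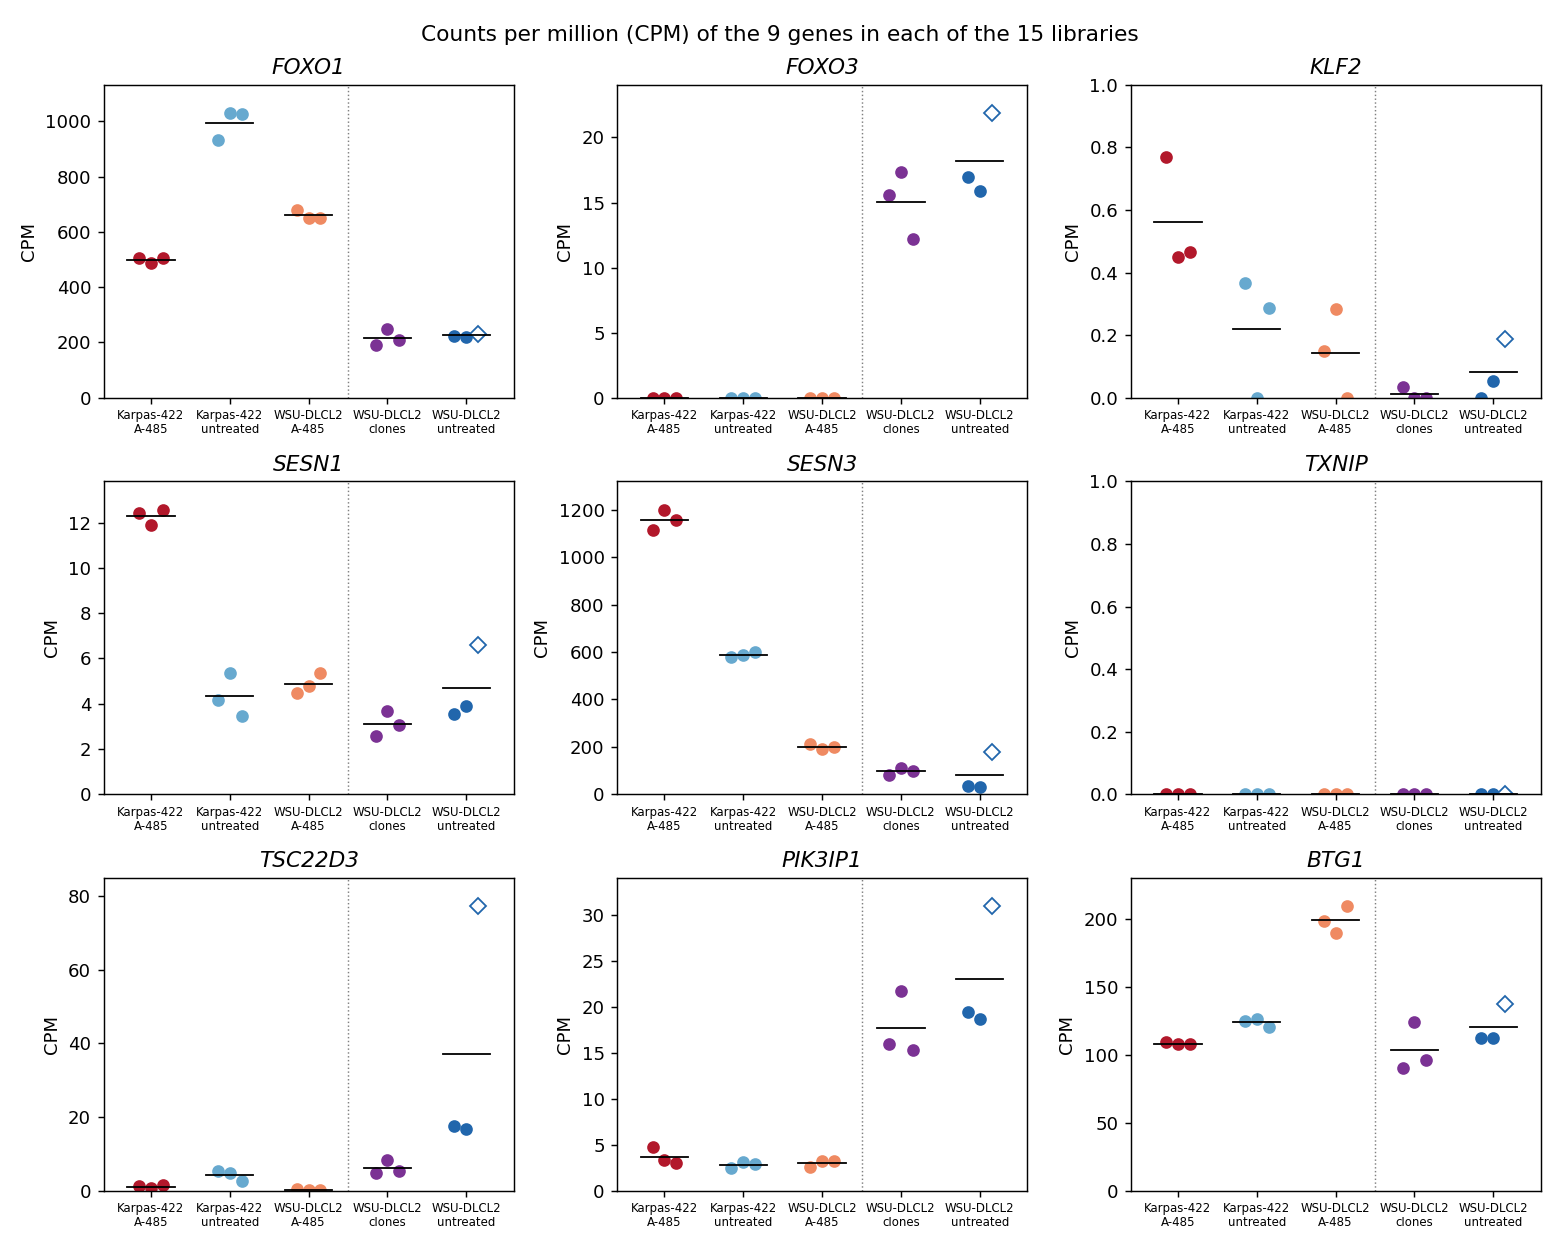
CPM (counts scaled to 1000000 counts in genes, vertical axes) of the 9 members in each of the 15 libraries, one panel per gene; points are libraries, bars are group means, and the diamond is untreated WSU-DLCL2 replicate 3. A dotted line separates the 2 kinds of library, across which levels are not compared; SESN3 and TSC22D3 show the diamond far above the other 2 untreated WSU-DLCL2 points.

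KLF2 was close to the detection limit. Its counts were 6, 4 and 4 in A-485-treated Karpas-422 and 3, 0 and 2 in untreated Karpas-422. They were 1, 2 and 0 in A-485-treated WSU-DLCL2, 1, 0 and 0 in the clones, and 0, 2 and 4 in untreated WSU-DLCL2. No comparison tested it.

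FOXO3 split by the kind of library. It had 0 counts in all 9 shallow libraries. It reached 15.6, 17.3 and 12.2 CPM in the clones, and 16.9, 15.9 and 21.9 CPM in untreated WSU-DLCL2. FOXO3 was 1 of 41 genes, of 8163 with at least 10 CPM in each of the 6 deep libraries, that had no count in any of the 9 shallow ones. Of its 50-base stretches, 27.8% also occur in other genes, 15.7% in FOXO3B. FOXO3B was counted in all 15 libraries, with 23 to 96 counts. Whether reads of FOXO3 were set aside as not uniquely aligned in the shallow libraries was not tested, so its level with A-485 cannot be read.

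With A-485 in Karpas-422, the sestrins were higher than in untreated cells, and FOXO1, TSC22D3 and BTG1 were lower. In bulk RNA, fewer cells with a transcript and less of it per cell cannot be told apart. FOXO1 had 504, 488 and 505 CPM with A-485, against 932, 1029 and 1026 CPM untreated. On the TMM scale, which sets the bulk of genes as unchanged, its log2 fold change was −1.41 ± 0.06 (SE, n = 3 each). With library sizes alone it was −0.99. Every treated library thus lay far below every untreated one.

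SESN3 had 1114, 1200 and 1159 CPM with A-485, against 578, 587 and 601 CPM in untreated Karpas-422. Its log2 fold change was 0.57 ± 0.06, or 0.98 when only library sizes were used. Its relative SESN1, which like SESN3 binds the GATOR2 complex to restrain mTORC1, had 12.5, 11.9 and 12.6 CPM with A-485 and 4.15, 5.38 and 3.45 CPM untreated. For SESN1 the log2 fold change was 1.09 ± 0.18, or 1.50 with library sizes alone. The treated and untreated libraries did not overlap for either sestrin, as for 74.7% of all genes tested in this comparison.

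TSC22D3, which encodes the glucocorticoid-induced leucine zipper GILZ, had 1.28, 0.674 and 1.40 CPM with A-485 and 5.37, 4.86 and 2.59 CPM untreated. These were 28 and 100 counts over the groups, and the log2 fold change was −2.35 ± 0.34, or −1.95 with library sizes alone. BTG1, whose product binds the CCR4-NOT deadenylase, had 109, 108 and 107.8 CPM with A-485 and 125, 127 and 121 CPM untreated. Its log2 fold change was −0.60 ± 0.06 on the TMM scale and −0.20 with library sizes alone, so its size hangs on the scaling. PIK3IP1 had 4.75, 3.37 and 3.03 CPM with A-485 and 2.44, 3.07 and 2.88 CPM untreated, and its scaled values overlapped, with a log2 fold change of −0.00 ± 0.25.

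Of the 6 members tested in Karpas-422, 5 had an adjusted p below 0.05 by the quasi-likelihood test of edgeR (Benjamini-Hochberg), 2 higher and 3 lower. Of all 11846 genes tested, 71.4% were called, 37.6% higher and 33.7% lower, and nothing is read from the members' count. Their median log2 fold change was −0.30, beside 0.08 over all genes tested. Library sizes alone shifted the median of all genes by 0.41 and moved the called genes to 6465 higher and 2290 lower, against 4459 and 3998 on the TMM scale. T and NK, epithelial and fibroblast marker sums were lower with A-485, and the sum of the 5 myeloid markers was higher, at 6.97 to 8.86 CPM with A-485 and 2.16 to 4.64 CPM untreated. Of the 3 T and NK cell markers tested, 2 fell and 1 rose. The part of these markers in the members' values was not tested.

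**Figure D2:**
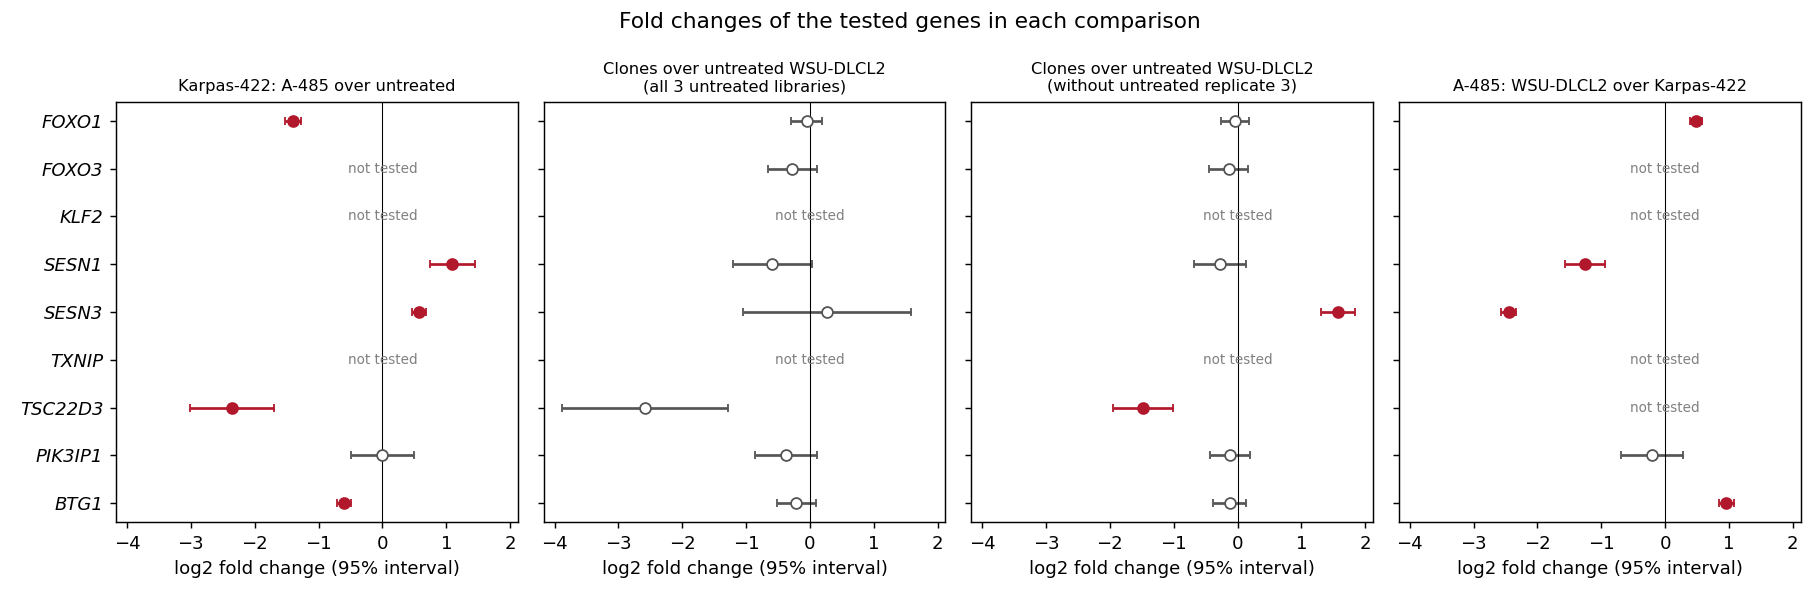
Log2 fold change (horizontal axis) of each tested member with an approximate 95% interval, in 4 panels: Karpas-422 A-485 against untreated, the clones against untreated WSU-DLCL2 with and without untreated replicate 3, and A-485-treated WSU-DLCL2 against A-485-treated Karpas-422. Filled red points have an adjusted p below 0.05; SESN3 moves between 0.27 and 1.57 in the clones as replicate 3 is kept or left out.

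Genes that govern FOXO proteins changed in both directions in Karpas-422. Of 16 tested, 4 rose and 7 fell, or 7 and 4 with library sizes alone, with a median log2 fold change of 0.04. Beside them, 37.6% of all genes tested in Karpas-422 rose and 33.7% fell. Nothing is read from the counts of this list or of those that follow for Karpas-422. YWHAG, a 14-3-3 protein of the family that holds phosphorylated FOXO in the cytoplasm, fell by 1.50 on the log2 scale (SE 0.06), to 1447 CPM with A-485, against 4092 untreated. SKP2, a ubiquitin ligase subunit that targets FOXO1 for degradation, fell by 0.63 (SE 0.05), and XPO1, the export receptor of nuclear FOXO, rose by 0.89 (SE 0.09). FOXO4 had a log2 fold change of −0.32 ± 0.12 (adjusted p = 0.0251) but 0.09 with library sizes alone. It lost its call without A-485 replicate 1 (adjusted p = 0.0680) or 3 (0.0795), without untreated replicate 2 (0.101) or 3 (0.0557), and with all 5 groups in 1 fit (0.474). CREBBP rose by 0.40 (SE 0.06), but lost its call with all 5 groups in 1 fit (0.42, adjusted p = 0.0650). EP300 did not pass the test (0.10 ± 0.13, adjusted p = 0.498), but did with library sizes alone (0.52, adjusted p = 0.00608).

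Of 18 PI3K and AKT pathway genes tested in Karpas-422, 7 rose and 7 fell, where 37.6% of all genes rose and 33.7% fell. Their median log2 fold change was −0.16. With library sizes alone, 10 rose and 2 fell, so the balance of this list hangs on the scaling. PIK3CA, the catalytic p110 alpha subunit, rose by 0.38 (SE 0.05), and PIK3R1, a regulatory subunit, rose by 2.22 (SE 0.31). PIK3R1 was close to the detection limit, at 4.30 CPM with A-485 and 0.912 CPM untreated. RICTOR, a subunit of the complex mTORC2 that activates AKT, rose by 0.52 (SE 0.07). RHEB, the GTPase that switches on mTORC1, fell by 0.87 (SE 0.10).

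Of 14 other described FOXO targets tested in Karpas-422, 9 fell and 4 rose, where 33.7% of all genes fell and 37.6% rose. Their median log2 fold change was −0.65, beside 0.08 over all genes, and no test set the list against other genes. With library sizes alone, 8 fell and 4 rose. TRIB1, a pseudokinase, fell by 4.40 (SE 0.10), to 5.94 CPM with A-485, against 126 CPM untreated. BCL2L11, which encodes the death inducer BIM, fell by 1.20 (SE 0.05), and GADD45A, a stress and growth-arrest gene, fell by 1.99 (SE 0.11). RBL2, a pocket protein of quiescent cells, rose by 3.07 (SE 0.15), to 36.6 CPM with A-485, against 4.32 CPM untreated.

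The partners of the other members in Karpas-422 divided as follows, beside 37.6% of all genes tested higher and 33.7% lower. Of 19 sestrin partners and mTORC1 brakes, 7 rose and 7 fell, but 13 rose and 3 fell with library sizes alone. DEPTOR, an inhibitor within mTOR complexes, fell by 1.41 (SE 0.06). PRKAB1 and PRKAG1, subunits of the energy sensor AMPK, rose by 1.49 (SE 0.19) and 2.69 (SE 0.34). PRKAG1 had 5.27 CPM with A-485 and only 0.765 CPM untreated, where 3 counts make 0.366 to 0.432 CPM in a library. Its change ran from 2.27 to 3.20 with 1 library left out. Of 11 genes around TXNIP, 3 rose and 5 fell, or 4 and 4 with library sizes alone. ARRDC3, another alpha-arrestin, rose by 1.22 (SE 0.07), while TXN, which encodes thioredoxin, fell by 1.61 (SE 0.06) and SLC2A1, which encodes the glucose transporter GLUT1, fell by 1.47 (SE 0.05).

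Around TSC22D3, 4 of 6 genes of the glucocorticoid receptor circuit fell and 1 rose in Karpas-422, under both scalings. On the TMM scale 33.7% of all genes tested fell and 37.6% rose, and no test set a list against other genes. The receptor gene NR3C1 fell by 1.07 (SE 0.13), to 15.8 CPM with A-485, against 33.4 CPM untreated. Its chaperones FKBP4 and HSP90AA1 fell by 2.32 (SE 0.05) and 1.54 (SE 0.07), and DUSP1, a glucocorticoid-induced phosphatase gene, fell by 1.14 (SE 0.12). Of 14 KLF, BTG/TOB and TSC22D relatives, 3 rose and 6 fell, or 8 and 5 with library sizes alone. KLF13 and KLF16, factors of the KLF2 family, fell by 1.45 (SE 0.06) and 1.68 (SE 0.07), and CNOT7, the deadenylase that BTG proteins bind, fell by 0.62 (SE 0.05). Of 13 proliferation genes, 5 rose and 4 fell, or 8 and 3 with library sizes alone, with CDK1 up by 1.93 (SE 0.11) and the replication gene MCM2 down, its log2 fold change being −1.25 ± 0.06.

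BCL11A RNA was not lower in the clones labelled BCL11A knockout. It had 58.8, 69.6 and 51.9 CPM in the clones, against 46.8, 45.7 and 73.5 CPM in untreated WSU-DLCL2, a log2 fold change of 0.13 ± 0.21 (adjusted p = 0.915). Without untreated replicate 3 it was 0.37 ± 0.12 (adjusted p = 0.177). A gene-level count does not show a small edit that spares the transcript, so it does not check the label. Loss of BCL11A and the cloning itself cannot be told apart here.

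SESN3 and TSC22D3 were the 2 members for which the clones lay apart from untreated WSU-DLCL2 libraries 1 and 2. SESN3 had 81.6, 111 and 96.3 CPM in the clones, against 33.8, 30.7 and 178 CPM in untreated libraries 1 to 3. Every clone lay above untreated libraries 1 and 2 and below library 3. Its log2 fold change was 0.27 ± 0.67 with all libraries and 1.57 ± 0.14 without replicate 3 (n = 3 clones and 2 untreated).

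TSC22D3 had 4.72, 8.37 and 5.25 CPM in the clones, against 17.4, 16.6 and 77.1 CPM in untreated WSU-DLCL2. The clones lay below all 3 untreated libraries. Its log2 fold change was −2.58 ± 0.66 with all libraries and −1.49 ± 0.24 without replicate 3. TSC22D3 was the only member of 7 whose groups did not overlap, which 16.5% of all 16152 genes tested also showed; without replicate 3 it was 2 of 7, SESN3 and TSC22D3, beside 40.3% of genes.

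The other members overlapped between the clones and untreated WSU-DLCL2. FOXO1 had 191, 249 and 210.3 CPM in the clones and 223, 221 and 231 CPM untreated, a log2 fold change of −0.05 ± 0.12. BTG1 had 90.3, 124 and 96.6 CPM in the clones and 112, 113 and 137 CPM untreated (−0.22 ± 0.15). PIK3IP1, the PI3K inhibitor, had 15.9, 21.8 and 15.4 CPM in the clones and 19.5, 18.7 and 31.0 CPM untreated (−0.38 ± 0.25). In all of these, clone 2 was the highest of the 3 clones. SESN1 had 2.56, 3.67 and 3.04 CPM in the clones and 3.55, 3.89 and 6.59 CPM untreated (−0.59 ± 0.32), and FOXO3 had a log2 fold change of −0.27 ± 0.20. Without replicate 3 these 5 members lay between −0.27 and −0.04.

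With all libraries, none of 16152 genes, and so none of the 7 members tested, had an adjusted p below 0.05 in edgeR's quasi-likelihood test (0% called, in either direction). Before adjustment 1117 genes were under 0.05, and 315 genes were called by DESeq2 and 2 by limma-voom. Without replicate 3, edgeR called 2.11% of 16607 genes, 0.422% higher and 1.69% lower, and 2 of the 7 members were among them, SESN3 higher and TSC22D3 lower. These are the comparisons from which the members were chosen, so nothing is read from that count.

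Untreated replicate 3 stood apart for SESN3 and TSC22D3. On one scale for the 3 untreated libraries and the clones, SESN3 in it was 5.39 times the mean of replicates 1 and 2, and TSC22D3 was 4.42 times that mean. SESN1 was 1.73, PIK3IP1 1.58, FOXO3 1.30, BTG1 1.19 and FOXO1 1.02 times it. Replicate 2 over replicate 1 ran only from 0.917 to 1.10 for these 7 members. Replicate 3 was the highest of the 6 deep libraries for 6 of 7 members, beside 36.6% of all genes tested, and at least 2-fold above the other 2 for 2 of 7 members, beside 12.4%. FOXO4 went the other way, at 0.340 times the mean. So did all 13 proliferation genes tested, from 0.144 times it for MCM2 to 0.752 times for BIRC5. Of all genes tested, 15.6% were at least 2-fold lower in replicate 3. Over all genes, a chi-square per gene was 201 and 212 between replicate 3 and the other 2, against 2.66 between replicates 1 and 2. Between the clones it was 20.3 to 40.9, so untreated replicates 1 and 2 were closer than any pair of clones. The fit without replicate 3 takes these 2 replicates as separate samples.

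**Figure D3:**
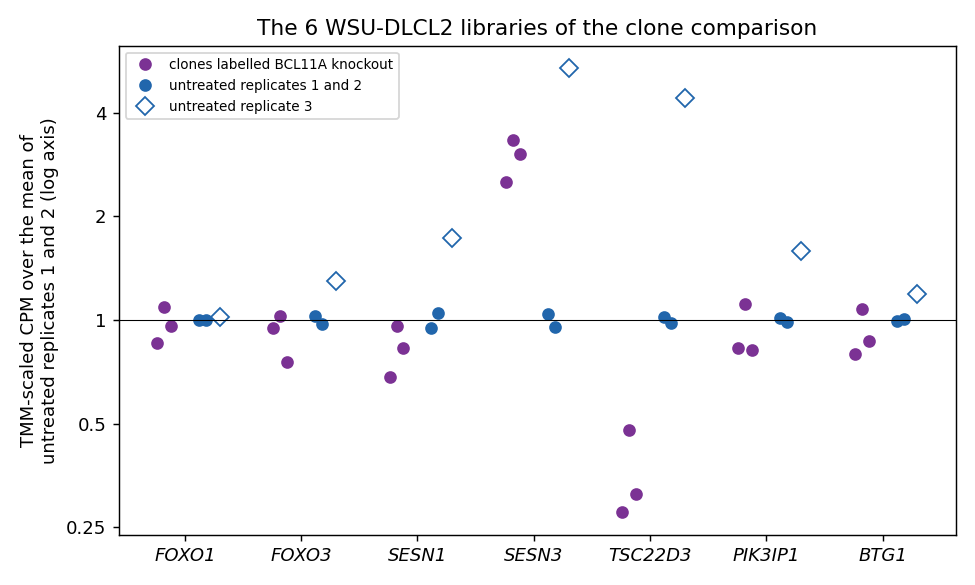
Scaled CPM of the 7 members tested in the deep libraries, divided by the mean of untreated WSU-DLCL2 replicates 1 and 2 (log axis), for the 3 clones and the 3 untreated libraries. Replicate 3 stands at 5.39 for SESN3 and 4.42 for TSC22D3 and near 1 for FOXO1 and BTG1, while the clones lie above 1 for SESN3 and below 1 for TSC22D3.

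In the fit without replicate 3, the genes of the related lists that were called in the clones were all lower. Of all 351 genes called in that fit, 281 were lower and 70 higher. The same fit with replicate 3 called none. With all 5 groups in 1 fit, which keeps replicate 3, list genes called included CXCR4 (adjusted p = 0.0125), SGK1 (0.0274) and the glucose transporter gene SLC2A3 (0.0345), all lower, and the catalase gene CAT, a FOXO target, which was higher (0.53, adjusted p = 0.0167). Without replicate 3, 4 of 20 other FOXO targets tested fell and 16 were not called, where 1.69% of all genes fell and 0.422% rose. The median log2 fold change of these targets was −0.50, beside 0.02 over all genes. With replicate 3, the medians were −0.25 and −0.01. Among them were GABARAPL1, an autophagy gene (1.50 CPM in the clones, 10.1 untreated, −2.75 ± 0.29, adjusted p = 0.0149), the chemokine receptor CXCR4 (51.1 CPM in the clones, 137 untreated, −1.42 ± 0.16, adjusted p = 0.0184), and the homing receptor CCR7, at 0.0774 CPM in the clones and 1.87 CPM untreated (−4.47 ± 0.53, adjusted p = 0.0186). CXCR4 and CCR7 guide lymphocyte migration. The mean of CCR7 in the clones lay below the detection floor, since 3 counts make 0.0859 to 0.101 CPM in a clone library. With replicate 3 the log2 fold changes were −2.36 ± 0.55 for GABARAPL1, −1.21 ± 0.26 for CXCR4 and −4.14 ± 0.74 for CCR7, and none was called (adjusted p of 0.343, 0.311 and 0.209).

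In the glucocorticoid receptor circuit, 3 of 10 genes fell in the clones without replicate 3 and 7 were not called, beside 1.69% of all genes lower. BIRC3, an inhibitor of apoptosis, had 102 CPM in the clones and 300.2 CPM untreated (−1.56 ± 0.11, adjusted p = 0.00548). NFKBIA, the NF-kB inhibitor gene, had 27.3 CPM in the clones and 62.9 CPM untreated (−1.20 ± 0.09, adjusted p = 0.00548), and DUSP1 fell by 1.02 (SE 0.17, adjusted p = 0.0467). BIRC3 and NFKBIA are also NF-kB targets. SGK1, a kinase gene induced by glucocorticoids, had a log2 fold change of −3.47 ± 0.64 and missed the threshold (adjusted p = 0.0752). With replicate 3, the log2 fold changes were −1.20 ± 0.40 for BIRC3, −0.91 ± 0.32 for NFKBIA, −0.79 ± 0.31 for DUSP1 and −3.10 ± 0.73 for SGK1, and none was called.

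Of 22 sestrin partners and mTORC1 brakes, 2 fell in the clones without replicate 3, MIOS and SQSTM1. MIOS, a GATOR2 subunit, had 105 CPM in the clones and 176 CPM untreated (−0.74 ± 0.09, adjusted p = 0.0186). SQSTM1, an autophagy receptor, had a log2 fold change of −0.50 ± 0.08 (adjusted p = 0.0423). KLF6 fell by 0.90 (SE 0.14, adjusted p = 0.0337), 1 of 16 relatives of KLF2, BTG1 and TSC22D3, where 1.69% of all genes were called lower. With replicate 3 none of the 3 was called, at −0.61 ± 0.16 for MIOS, −0.51 ± 0.11 for SQSTM1 and −0.63 ± 0.30 for KLF6. Without it, no gene of the FOXO regulators, the PI3K and AKT pathway, the genes around TXNIP or the proliferation list was called. FOXO4 (−0.23 ± 0.20), EP300 (−0.03 ± 0.06) and CREBBP (0.25 ± 0.09, adjusted p = 0.197) did not pass. With replicate 3 their log2 fold changes were 0.12 ± 0.43, −0.24 ± 0.18 and −0.11 ± 0.26.

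The 2 A-485-treated groups are of 1 kind of library, and the rule that chose the members did not set them against each other. This comparison shares its Karpas-422 libraries with the one above, in which SESN3 was picked, so the values of SESN3 are given with no test. SESN3 had 211, 191 and 201 CPM in WSU-DLCL2, against 1114, 1200 and 1159 CPM in Karpas-422. It was 5.48-fold lower in WSU-DLCL2 (log2 −2.45 ± 0.06). SESN1 was lower too, with 4.48, 4.80 and 5.36 CPM in WSU-DLCL2 and 12.5, 11.9 and 12.6 CPM in Karpas-422 (log2 −1.26 ± 0.16, adjusted p = 1.45e-06, edgeR). Both sestrins were thus lower in every treated WSU-DLCL2 library than in any treated Karpas-422 one; groups did not overlap for 74.9% of all genes tested here.

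FOXO1 and BTG1 were higher in treated WSU-DLCL2. FOXO1 had 680, 651 and 649 CPM in WSU-DLCL2, against 504, 488 and 505 CPM in Karpas-422 (log2 0.48 ± 0.05, adjusted p = 5.43e-08). BTG1 had 199, 190 and 209 CPM in WSU-DLCL2 and 109, 108 and 107.8 CPM in Karpas-422 (log2 0.95 ± 0.06, adjusted p = 1.23e-10). PIK3IP1 had 2.54, 3.25 and 3.28 CPM in WSU-DLCL2 and 4.75, 3.37 and 3.03 CPM in Karpas-422, and no difference was detectable (−0.21 ± 0.25, approximate 95% interval −0.70 to 0.28, adjusted p = 0.457). TSC22D3, with 5 counts over the WSU-DLCL2 libraries and 28 over the Karpas-422 ones, was too low to be tested.

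Of the 5 members in this fit, 4 were past the threshold, SESN3 included, where 72.4% of all 12472 genes were, so a call is common here. They were 2 higher and 2 lower, beside 34.3% and 38.1% of genes. Members and all genes had median log2 differences of −0.21 and −0.07. Whether the lines differed in these members before treatment cannot be told apart from the kind of library, since untreated WSU-DLCL2 was sequenced in the other kind.

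The related lists were also compared between the treated lines. Of all 12472 genes tested there, 34.3% were higher in WSU-DLCL2 and 38.1% lower. No test set a list against other genes, so nothing is read from the list counts that follow. Of 17 PI3K and AKT pathway genes, 4 were higher and 4 lower, with RICTOR lower (−1.13 ± 0.07), INPP5D, a lipid phosphatase gene, lower (−0.91 ± 0.13) and PIK3AP1, an adaptor of PI3K in B cells, higher (0.48 ± 0.05). Of 17 FOXO regulators, 5 were higher and 2 lower. EP300 was lower (−0.51 ± 0.05), while CREBBP (−0.04 ± 0.06, adjusted p = 0.571) and FOXO4 (−0.15 ± 0.13, adjusted p = 0.324) did not pass.

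Of 16 other FOXO targets, 8 were higher in treated WSU-DLCL2 and 6 lower, with a median log2 difference of 0.19. BCL2L11 had 920.5 CPM in WSU-DLCL2 and 286.5 CPM in Karpas-422 (log2 1.68 ± 0.05), and BNIP3, a mitophagy gene, had 77.1 CPM in WSU-DLCL2 and 4.87 CPM in Karpas-422 (3.99 ± 0.11). CDKN1B, which encodes the cell cycle inhibitor p27, was lower (−0.86 ± 0.06). Of 18 sestrin partners and mTORC1 brakes, 5 were higher and 4 lower. SESN2, the sestrin that senses leucine, was higher (1.11 ± 0.11) where SESN1 and SESN3 were lower, and DEPTOR was lower (−2.54 ± 0.08).

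Of 8 glucocorticoid circuit genes, 6 were higher in treated WSU-DLCL2 and 2 lower, with a median log2 difference of 1.27. FKBP4 (1.71 ± 0.05), HSP90AA1 (1.12 ± 0.07) and BIRC3 (8.48 ± 0.15) were higher, and the receptor gene NR3C1 was lower (−1.57 ± 0.15). Among 12 genes around TXNIP, 3 were higher and 3 lower. ARRDC4, another alpha-arrestin, had 614 counts over the WSU-DLCL2 libraries and 0 in Karpas-422, at least 252-fold higher if Karpas-422 is set to a group floor of 3 counts, and TXN was higher (1.44 ± 0.06). Of 15 relatives of KLF2, BTG1 and TSC22D3, 5 were higher and 7 lower: TSC22D1 was higher (2.14 ± 0.12) and KLF7, with 0 counts in WSU-DLCL2 and 1064 in Karpas-422, was at least 288-fold lower.

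**Figure D4:**
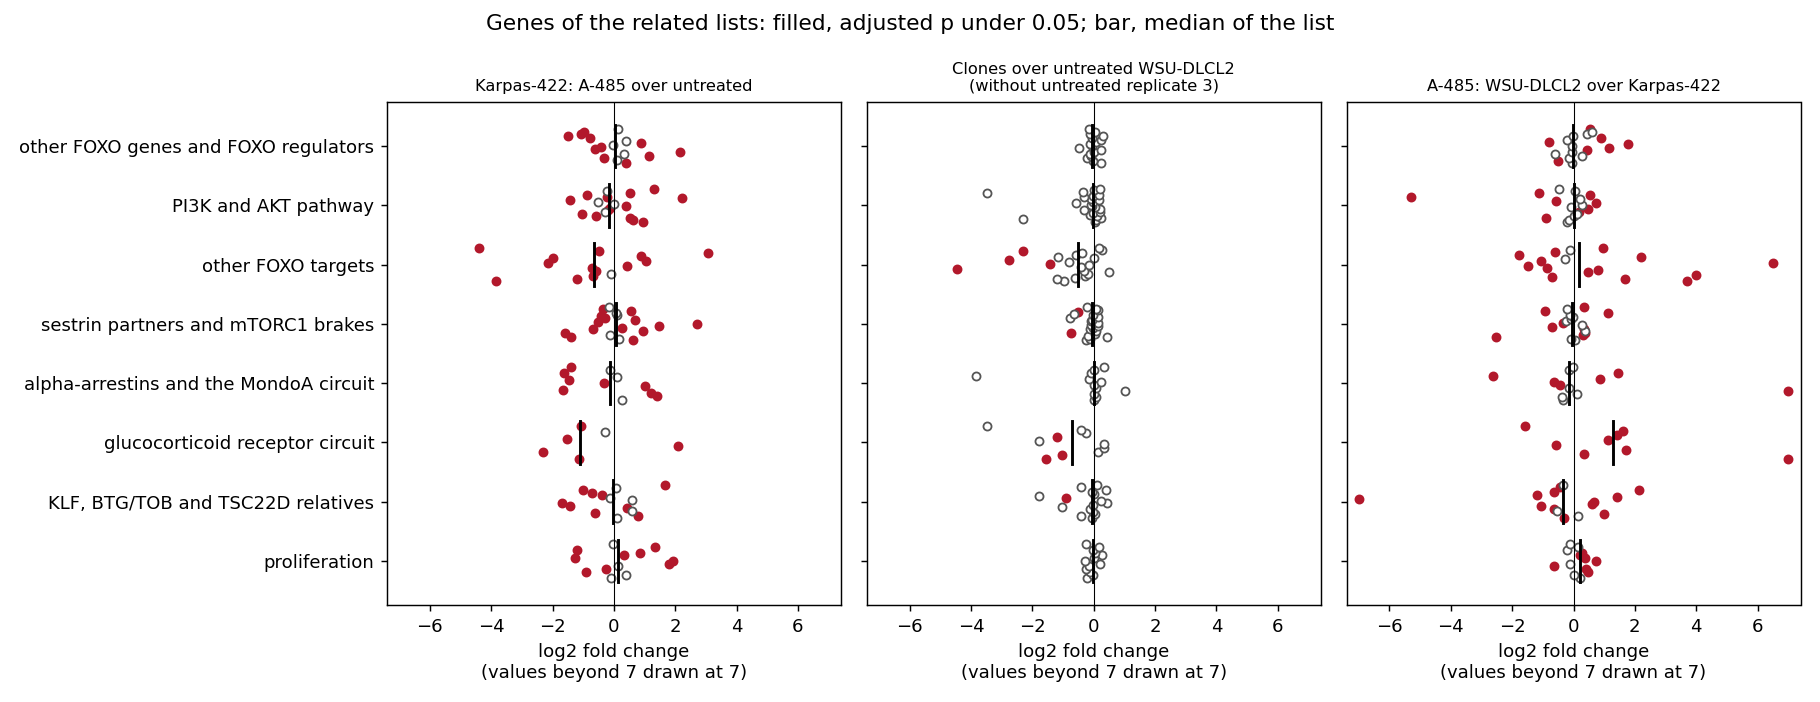
Log2 fold changes (horizontal axis) of the tested genes of the lists around the members, one row per list and one panel per comparison: Karpas-422 A-485 against untreated, the clones against untreated WSU-DLCL2 without replicate 3, and A-485-treated WSU-DLCL2 against A-485-treated Karpas-422. Points are genes, bars are medians, and values beyond 7 are drawn at 7; the FOXO target median lies at −0.65, −0.50 and 0.19 in the 3 panels.

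The genes whose levels followed SESN3 and TSC22D3 most closely were found by Pearson's r over 12 libraries, those of Karpas-422, the clones and untreated WSU-DLCL2, each value taken from the mean of its comparison. For SESN3 they were CSRNP2 (0.957), ATPAF2 (0.951), PCYT1A (0.951), GALNT7 (0.933) and TNS3 (0.930), of 8911 genes. For TSC22D3 they were TERF2IP (0.967), TMEM182 (0.962), ANKRD13C (0.960), HLA-DMA (0.958) and DUSP5 (0.953). Without untreated replicate 3, a choice made after seeing the data, the SESN3 list kept CSRNP2 and ATPAF2, and the TSC22D3 list kept none. The libraries share their groups and replicate 3, so these values are descriptions.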

How the data were processed

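The authors deposited whole-number read counts per gene, 1 file per library, used here as raw counts. The tools were STAR 2.5.3a and RSEM, with GRCh37 (hg19), per the submitters' processing notes. The sources used here do not say whether RSEM or another program made the deposited counts. They name no annotation or strand, so overlapping genes cannot be told apart. Of the stretches of 50 bases in BTG1 and SESN1 transcripts, 13.2% and 6.33% also occur in other genes. Each file ends in 5 summary lines, which were left out (60.9% to 70.2% of the reads listed in shallow libraries, 27.3% to 29.7% in deep ones). Of 63677 identifiers, 52526 had a symbol, and the others held 0.862% of counts. GENCODE 29 (GRCh38) gave exonic lengths and transcripts only.

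The tests ran in edgeR 4.0.16 (R 4.3.3, limma 3.58.1): filterByExpr, TMM scaling, robust quasi-likelihood fits of the groups compared, two-sided, Benjamini-Hochberg over all genes kept, threshold 0.05. The standard error is the log2 fold change over the square root of F, and 95% intervals are approximate. CPM per library are not TMM-scaled; CPM with a fold change are, apart from members and BCL11A. Replicate pairs were compared by a chi-square averaged over genes of 20 or more counts (lowest value 1.20), and no pair was counted as 1 sample. Intervals cover counting error and the spread among the libraries compared, while floors (3 counts) cover counting error only.

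The members, the 12 other lists (176 genes) and the tests were chosen with earlier results of these data known. Named were all members, BCL11A, FOXO4, EP300, CREBBP, up to 4 genes per list and comparison with the smallest p, and the 5 protein-coding genes most like SESN3 and TSC22D3. Scripts were tested on simulated data. Alternatives were DESeq2 1.42.0 size factors and test, library sizes alone, no filter, limma-voom, all groups in 1 fit, each library left out, and the replicate number as a block. A-485-treated and untreated WSU-DLCL2 were not tested against each other. Results for some list genes are not reported here.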

Additional observations from a re-analysis of the deposited data

Results flagged for a closer look

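The CPM of FOXO1 and BTG1 differed in opposite directions between A-485-treated and untreated libraries of the 2 lines. Groups did not overlap in either line. On the TMM scale 74.7% of all genes tested in Karpas-422 did not overlap either, and no such share was counted in WSU-DLCL2. The log2 ratio of A-485-treated over untreated CPM was 1.55 for FOXO1 in WSU-DLCL2 and −0.996 in Karpas-422, and for BTG1 it was 0.72 in WSU-DLCL2 and −0.20 in Karpas-422. The difference between the lines was not tested. In WSU-DLCL2 the treated libraries are shallow and the untreated ones deep, so an effect of treatment cannot be told apart from one of library kind. Leaving out untreated WSU-DLCL2 replicate 3 kept both directions.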

How the results depend on the processing

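All values of the 5 members tested between the A-485-treated lines kept their direction and call under 65 alternative values. SESN3 is among the 5, and nothing is read from its call, since it was picked in the same Karpas-422 libraries. In Karpas-422, calls ranged from 6868 to 9506 genes over the alternatives; SESN3 lost its call with all 5 groups in 1 fit (0.58, adjusted p = 0.302), as did CREBBP and FOXO4. PIK3IP1 turned to 0.40 with library sizes alone and 0.012 with all groups in 1 fit, and ran from −0.21 to 0.12 with 1 library left out; FOXO4 turned to 0.0935 with library sizes alone; EP300 ran from −0.0451 to 0.19 with 1 library left out. The causes were not tested.

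In the clones, the count of genes called was 20 with no filter, 315 with DESeq2, 2 with limma-voom and 306 with all groups in 1 fit, and ran from 0 to 351 with 1 library left out, 351 being without untreated replicate 3. The count of members called was 1 with DESeq2 and 1 with all groups in 1 fit, TSC22D3 both times, and ran from 0 to 2 with 1 library left out. With 1 library left out, SESN3 ran from −0.10 to 1.57, FOXO1 from −0.15 to 0.0310, FOXO4 from −0.23 to 0.36 and CREBBP from −0.26 to 0.25. Between the treated lines, FOXO4 ran from −0.22 to 0.0205 and CREBBP from −0.0772 to 0.0480; CREBBP was 0.0271 with DESeq2 size factors, 0.0270 in DESeq2's test and 0.000835 with all groups in 1 fit.

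The replicate numbers did not pair the samples: deviations of same-numbered libraries correlated at 0.0186, 0.0772 and −0.0477 in Karpas-422 and at −0.218, −0.133 and 0.0074 between the treated lines. The replicate block gave 8250 calls, 5 members among them, in Karpas-422 and 8666, 4 members among them, between the treated lines, and Karpas-422 libraries did not each correlate best with their own number. Clone numbers are not pairs, so no paired fit was made there. CCR7 was not kept in the clones when all groups entered 1 fit. Depth limits KLF2 everywhere and TSC22D3 with A-485.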
